A study of Rattus norvegicus with 12 samples.

Results

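The interleukin-1 (IL-1) family and its receptors were examined in LV myocardium of rats as 10 genes, chosen by symbol from the 34599 loci of the count table. The genes were the agonists Il1a and Il1b, the receptor antagonist Il1rn, the receptors Il1r1, Il1r2 and Il1rap, the related cytokines Il18 and Il33, and their receptors Il18r1 and Il1rl1. The 10 genes were selected with earlier results of the same rats known, so the differences reported for them describe these rats and are not independent evidence of a direction. The study compared male SD rats of 3 groups, with 4 rats in each, and total RNA was taken 1 d after surgery. An age of 6 weeks is given for the SD rats in the methods of the illumination experiment, and the description of the infarct surgery does not repeat it. Sham rats underwent opening of the chest without ligation. In MI rats, the LAD, a coronary artery that feeds the front wall of the LV, was tied off. The iCarP+/Light+ rats underwent the same ligation, received an injection of Chlorella, an oxygen-producing green alga, into the infarcted LV, and carried a biodegradable light-guiding patch that was glued to the heart with an adhesive gel and used to illuminate it. Alga, patch, adhesive and light were given together and cannot be told apart here, and the patch without light (iCarP+/Light-) was not analysed here. The iCarP+/Light+ rats are also called treated rats.

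IL-1α and IL-1β are inflammatory cytokines that signal through the same receptor, IL1R1, which needs the accessory protein IL1RAP to pass the signal on through MYD88. IL-1α is active as it is made and is released from damaged cells, whereas IL-1β is made by activated myeloid cells as an inactive precursor that is cut by caspase-1 in the inflammasome. The pathway is held in check by IL-1RA, the product of Il1rn, which occupies IL1R1 without signalling, and by the decoy receptor IL1R2, which binds IL-1 but lacks a signalling domain. IL-18 is also cut by caspase-1 and acts through IL18R1, whereas IL-33 is kept in the nucleus of stromal cells and acts through ST2, the product of Il1rl1. In the infarcted heart, IL-1 is known for driving the early inflammatory response.

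Il1a (chr3:121825412-121836086) and Il1b (chr3:121876263-121882726) lay next to each other on the minus strand in the coordinates of the count table, for which the submitters' processing notes name the rn6 build, and Il1rn lay apart on the plus strand at chr3:1452644-1468614. The receptor genes Il1r2 (chr9:46840992-46881264), Il1r1 (chr9:46962288-47036670), Il1rl1 (chr9:47134034-47182170) and Il18r1 (chr9:47185443-47219175) followed each other on the plus strand. Il1rap was at chr11:77463954-77593207 on the minus strand, Il33 at chr1:248132090-248147029 on the plus strand and Il18 at chr8:54993859-55016299 on the plus strand. RefSeq promoters of build GRCr8 were found for 9 of the 10 genes, with 11 transcription starts. The 250 bases before the start are shown for both agonists, for the antagonist and for Il18, since the results turn on how these genes differed. Capitals mark matches on either strand to AP-1 (TGANTCA), C/EBP (TTNNGNAA) or the TATA box (TATAAA), and 2 of the C/EBP matches of Il1rn overlap each other.
Il1b, chr3:137036582-137036831, minus strand: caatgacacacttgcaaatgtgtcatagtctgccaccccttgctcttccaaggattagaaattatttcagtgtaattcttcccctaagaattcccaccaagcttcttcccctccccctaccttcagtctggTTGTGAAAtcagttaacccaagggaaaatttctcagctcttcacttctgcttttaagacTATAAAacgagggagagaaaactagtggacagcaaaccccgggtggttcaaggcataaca
Il1a, chr3:136990018-136990267, minus strand: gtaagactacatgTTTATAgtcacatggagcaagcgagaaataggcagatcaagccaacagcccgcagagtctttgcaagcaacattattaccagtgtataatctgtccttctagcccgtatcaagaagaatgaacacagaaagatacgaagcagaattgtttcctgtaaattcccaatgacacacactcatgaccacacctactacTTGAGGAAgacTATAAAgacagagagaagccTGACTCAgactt
Il1rn, chr3:27520072-27520321, plus strand: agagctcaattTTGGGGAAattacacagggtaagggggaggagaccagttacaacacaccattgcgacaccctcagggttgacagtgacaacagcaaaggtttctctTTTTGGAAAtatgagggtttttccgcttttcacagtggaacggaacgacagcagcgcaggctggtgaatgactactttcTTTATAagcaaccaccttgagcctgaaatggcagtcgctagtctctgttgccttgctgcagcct
Il18, chr8:59801822-59802071, plus strand: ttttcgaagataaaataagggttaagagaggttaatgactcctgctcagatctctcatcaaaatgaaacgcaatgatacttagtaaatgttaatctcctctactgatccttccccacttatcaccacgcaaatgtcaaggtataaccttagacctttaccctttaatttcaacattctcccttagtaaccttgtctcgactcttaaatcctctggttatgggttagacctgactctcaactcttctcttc

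A C/EBP match was present in the windows of Il1b, Il1a, Il1rn and both starts of Il33, and in 37.2% of 33469 rat promoters of the same length. The TATA box was matched in the windows of Il1b, Il1a, Il1rn, Il1rl1 and 1 start of Il33, against 12.9% of all promoters, and 1 AP-1 match was found in Il1a, against 6.34%. The NF-kB motif was matched in none of the 4 windows shown, while the windows of Il1r1 and Il1rap each held 1 match, against 6.33% of all promoters. The window of Il18 held no match to any of these motifs. These are matches of letters only, and nothing about binding of a factor follows from them.

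Libraries held 14064414 to 17136958 counted reads, so that 3 reads, taken here as the floor, corresponded to 0.175 to 0.213 counts per 1e6 reads (CPM) of the total count. This floor covers counting error only. Mitochondrial genes took 22.8% to 28.9% of the counts in Sham rats, 8.52% to 11.5% in MI rats and 7.14% to 14.2% in treated rats. Levels below are CPM after TMM scaling, which corrects library sizes for composition, with factors of 0.784 to 0.856, 1.15 to 1.26 and 0.960 to 1.05 in the same order. Summed CPM of 6 cardiomyocyte markers was 25554 to 29060 in Sham rats, 1430 to 3223 in MI rats and 1327 to 3839 in treated rats, so heart muscle transcripts were present in every rat and lower in both ligated groups. All fold changes, standard errors (SE) and adjusted p-values come from edgeR's quasi-likelihood test over 15101 genes with Benjamini-Hochberg adjustment and a threshold of 0.05. In bulk tissue, fewer cells of a type and less RNA per cell cannot be told apart.

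After MI alone, 8 of the 10 genes rose, none fell, and Il1a and Il33 did not pass the test, where 30.2% of all genes tested were called higher and 33.6% lower (51.0% and 18.4% with total counts alone). In iCarP+/Light+ rats compared with MI rats, 7 of the 10 genes rose (Il1a, Il1b, Il1rn, Il1r2, Il1rap, Il1r1 and Il33), where 11.6% of all genes were called higher (7.97% with total counts alone). Il18 was the 1 gene that fell, where 2.01% of all genes were called lower (18.03% with total counts alone and 5.05% by DESeq2), and Il18r1 and Il1rl1 did not pass the test. Compared with Sham, all 10 genes were higher in iCarP+/Light+ rats, where 33.5% of all genes were called higher and 33% lower (44.1% and 24.1% with total counts alone). Over the 10 genes, the median log2 fold change was 1.36 for MI against Sham, 1.96 for iCarP+/Light+ against MI and 2.71 for iCarP+/Light+ against Sham, beside medians of -0.060, 0.013 and 0.017 over all genes tested. Il1a passed the filter on low counts only through the treated rats, and no Sham rat reached the filter's minimum for Il1a or Il1r2. The calls for Il1a, and those for Il1r2 against Sham, therefore had to be rises, and counts and medians that include them support nothing by themselves. The groups did not overlap in 7, 8 and 9 of the 10 genes in the same order of comparisons, beside 59%, 16.4% and 63.5% of all genes. The comparisons share groups, among them the 4 MI rats that both of the first use, so they are not independent of each other.

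**Figure D1:**
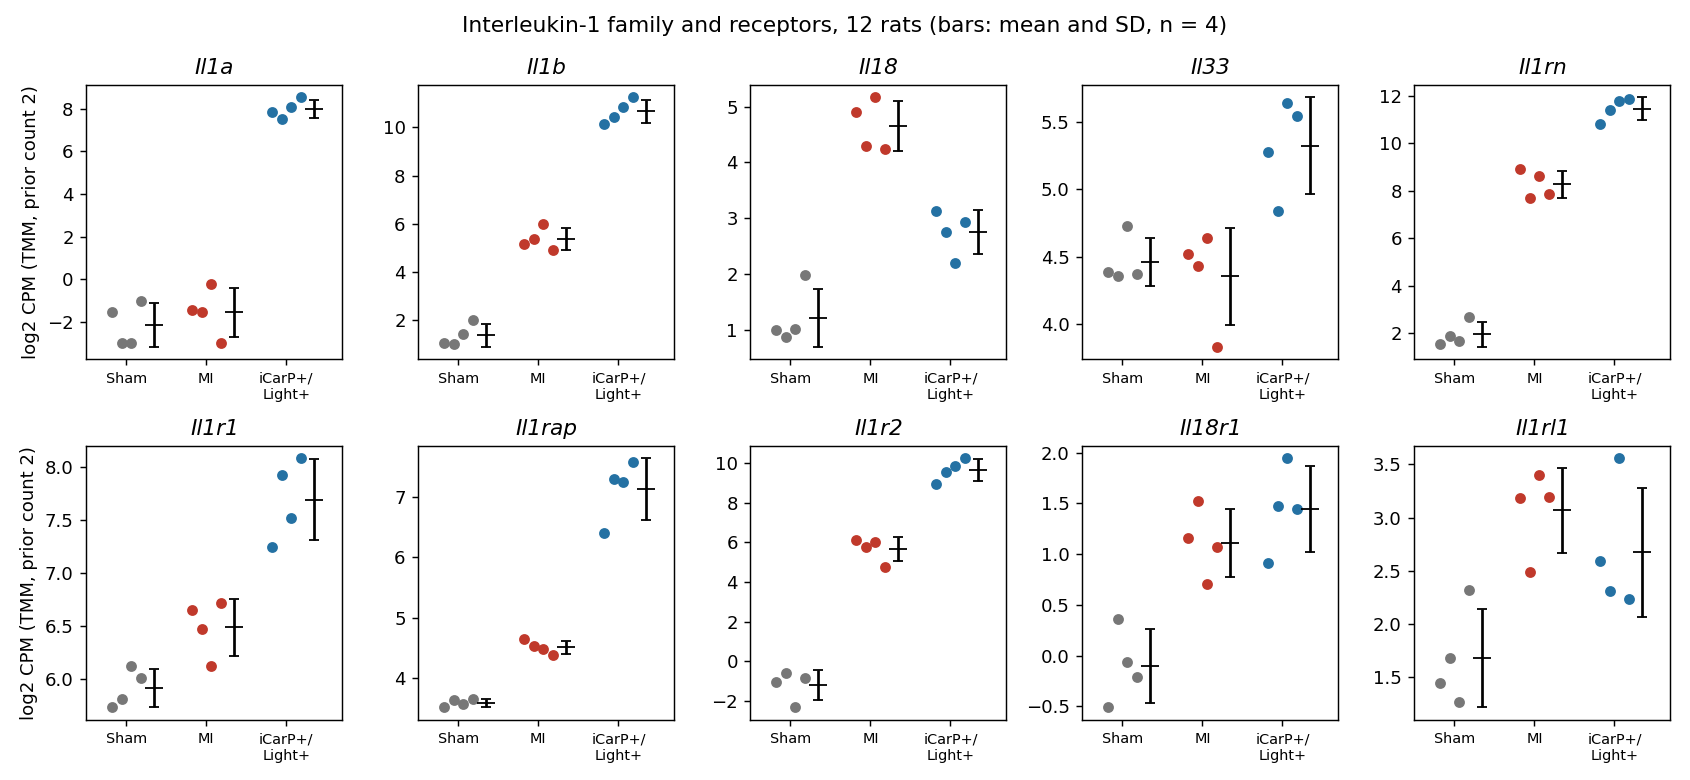
Log2 CPM after TMM scaling (y axis, prior count of 2, a range of its own in each panel) of each of the 10 genes in the Sham, MI and iCarP+/Light+ rats, with a point per rat and bars for the mean and SD (n = 4). The iCarP+/Light+ points lie above all others for Il1a, Il1b, Il1rn, Il1r2, Il1rap, Il1r1 and Il33, whereas for Il18 they lie between the Sham and the MI rats.

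Il1b, the agonist made as a precursor, was at 1.95, 1.91, 2.58 and 3.98 CPM in Sham rats 1, 2, 3 and 5, and at 35.9, 41.2, 64.0 and 30.5 CPM in MI rats 1, 3, 4 and 5. In iCarP+/Light+ rats 1, 2, 4 and 5, it reached 1132, 1375, 1826 and 2430.1 CPM. The 3 groups did not overlap, and the lowest treated rat was above the highest MI rat. Il1b rose 16.5-fold in MI against Sham (log2 fold change 4.04, SE 0.34, adjusted p = 5.92e-07). It rose a further 39.4-fold in iCarP+/Light+ against MI (log2 fold change 5.30, SE 0.34, adjusted p = 1.77e-06).

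Il1a, the agonist that needs no cleavage, was hardly detected without the treatment. Its raw counts were 3, 0, 0 and 5 reads in Sham rats 1, 2, 3 and 5, and 5, 4, 13 and 0 reads in MI rats 1, 3, 4 and 5. In iCarP+/Light+ rats 1, 2, 4 and 5, it had 3704, 2998, 4011 and 5244 reads, which corresponded to 232, 181, 272 and 369 CPM. The Sham and MI rats overlapped at or near the floor (adjusted p = 0.412), so a difference between them was not detectable at this depth. The increase in iCarP+/Light+ rats against MI was 884-fold (log2 fold change 9.79, SE 0.54, adjusted p = 1.77e-06), and it rests on 22 reads in the 4 MI rats together (log2 fold change 10.7 without MI rat 4, which had most of them). Il1a passed the filter on low counts through the treated rats alone, so its difference had to be in that direction.

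Il1rn, which encodes the receptor antagonist, was at 2.82, 3.55, 3.04 and 6.34 CPM in Sham rats 1, 2, 3 and 5, and at 479, 210.3, 395 and 230.4 CPM in MI rats 1, 3, 4 and 5. In iCarP+/Light+ rats 1, 2, 4 and 5, it was at 1785, 2727, 3505 and 3704 CPM. The 3 groups were separate for this gene as well. Il1rn rose 83.4-fold in MI against Sham (log2 fold change 6.38, SE 0.41, adjusted p = 9.27e-08). The further rise in iCarP+/Light+ against MI was 8.91-fold (log2 fold change 3.16, SE 0.34, adjusted p = 5.03e-05).

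Il1r2, the decoy receptor, had only 5, 8, 1 and 6 reads in Sham rats 1, 2, 3 and 5. It was at 70.1, 54.9, 63.8 and 26.8 CPM in MI rats 1, 3, 4 and 5, and at 492, 750.3, 918 and 1222 CPM in iCarP+/Light+ rats 1, 2, 4 and 5. The Sham, MI and treated rats were again in 3 separate ranges, from low to high. Il1r2 rose 146-fold in MI against Sham (log2 fold change 7.19, SE 0.48, adjusted p = 1.28e-07), with few reads in Sham behind the value. No Sham rat reached the minimum of the filter on low counts, so in this comparison its difference had to be a rise. It rose 15.7-fold in iCarP+/Light+ against MI (log2 fold change 3.97, SE 0.35, adjusted p = 1.21e-05).

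Il1r1, the signalling receptor, changed far less in these rats. It was at 53.2, 56.1, 69.8 and 64.3 CPM in Sham rats 1, 2, 3 and 5, at 100.5, 88.6, 69.6 and 105 CPM in MI rats 1, 3, 4 and 5, and at 152, 243, 184 and 272 CPM in iCarP+/Light+ rats 1, 2, 4 and 5. MI rat 4 lay within the Sham range, while all treated rats were above the MI rats. Il1r1 rose 1.50-fold in MI against Sham (log2 fold change 0.58, SE 0.19, adjusted p = 0.0149) and 2.34-fold in iCarP+/Light+ against MI (log2 fold change 1.22, SE 0.19, adjusted p = 6.62e-04).

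Il1rap, the accessory protein shared by the receptors for IL-1 and IL-33, was at 11.3, 12.2, 11.7 and 12.5 CPM in Sham rats 1, 2, 3 and 5. It was at 24.9, 23.0, 22.2 and 20.8 CPM in MI rats 1, 3, 4 and 5, and at 84.5, 158, 153 and 192 CPM in iCarP+/Light+ rats 1, 2, 4 and 5. The 3 groups did not overlap, and treated rat 1 was well below the other treated rats. Il1rap rose 1.91-fold in MI against Sham (log2 fold change 0.93, SE 0.20, adjusted p = 0.00104) and 6.46-fold in iCarP+/Light+ against MI (log2 fold change 2.69, SE 0.20, adjusted p = 3.49e-06).

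**Figure D2:**
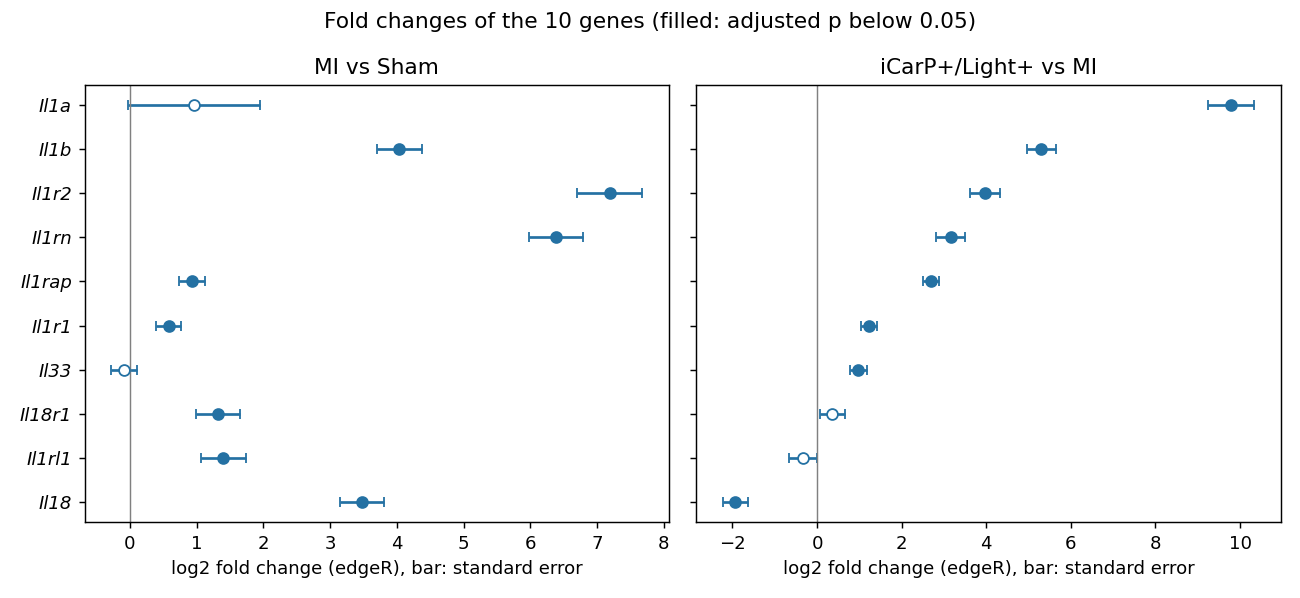
The log2 fold change of each of the 10 genes (x axis) by edgeR, with its standard error as a bar, for MI against Sham on the left and iCarP+/Light+ against MI on the right, filled where the adjusted p was below 0.05. Il1r2 and Il1rn have the highest values on the left (7.19 and 6.38), Il1a and Il1b on the right (9.79 and 5.30), and Il18 lies below 0 on the right.

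Il18, the other caspase-1 substrate, went up after ligation and was lower in the treated rats. It was at 1.88, 1.71, 1.90 and 3.83 CPM in Sham rats 1, 2, 3 and 5, at 29.9, 19.6, 35.7 and 18.8 CPM in MI rats 1, 3, 4 and 5, and at 8.64, 6.59, 4.47 and 7.53 CPM in iCarP+/Light+ rats 1, 2, 4 and 5. Each treated rat was below each MI rat and above each Sham rat. Il18 rose 11.1-fold in MI against Sham (log2 fold change 3.48, SE 0.32, adjusted p = 1.25e-06), and fell in iCarP+/Light+ against MI to 0.262 of the MI level (log2 fold change -1.93, SE 0.29, adjusted p = 6.33e-04). It was still 2.92-fold higher in iCarP+/Light+ than in Sham rats (log2 fold change 1.55, SE 0.32, adjusted p = 7.54e-04).

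Il18 overlaps Bco2, a carotenoid-cleaving enzyme encoded on the opposite strand at chr8:54965583-54998864, and the strand setting of the counting is not given in the sources used here. Reads of both genes can therefore not be told apart where they overlap. Bco2 was at 0.835 to 1.98 CPM in Sham rats, 6.69 to 13.5 CPM in MI rats and 4.08 to 6.03 CPM in treated rats, the same order of groups as Il18. Its log2 fold change was 2.88 (SE 0.30, adjusted p = 3.12e-06) in MI against Sham and -1.04 (SE 0.27, adjusted p = 0.0204) in iCarP+/Light+ against MI. The second of these did not pass without MI rat 1 (adjusted p = 0.0712), MI rat 4 (adjusted p = 0.0511) or iCarP+/Light+ rat 2 (adjusted p = 0.0606), whereas the call for Il18 was kept without each rat in turn.

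Il18r1, the ligand-binding receptor for IL-18, was a rare transcript, with 8 to 17 reads in Sham rats, 27 to 51 reads in MI rats and 28 to 55 reads in treated rats. Its levels were 0.578, 1.16, 0.835 and 0.737 CPM in Sham rats 1, 2, 3 and 5, 2.11, 2.75, 1.51 and 1.97 CPM in MI rats 1, 3, 4 and 5, and 1.75, 2.66, 3.73 and 2.60 CPM in iCarP+/Light+ rats 1, 2, 4 and 5. MI and treated rats overlapped, and both were above all Sham rats. The log2 fold change was 1.32 (SE 0.33, adjusted p = 0.00315) in MI against Sham and 0.36 (SE 0.30, adjusted p = 0.509) in iCarP+/Light+ against MI.

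Il33, the alarmin of stromal cells, was at 20.8, 20.4, 26.3 and 20.6 CPM in Sham rats 1, 2, 3 and 5, and at 22.8, 21.4, 24.8 and 14.2 CPM in MI rats 1, 3, 4 and 5. It was at 38.7, 28.5, 49.7 and 46.4 CPM in iCarP+/Light+ rats 1, 2, 4 and 5. Sham and MI rats overlapped, and every treated rat was above all of them. The log2 fold change was -0.083 (SE 0.20, adjusted p = 0.729) in MI against Sham, and its sign depended on the scaling and on single rats. Il33 rose 1.96-fold in iCarP+/Light+ against MI (log2 fold change 0.97, SE 0.20, adjusted p = 0.00463) and 1.85-fold against Sham (log2 fold change 0.89, SE 0.20, adjusted p = 0.00136).

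Il1rl1, which encodes the IL-33 receptor ST2, was at 2.60, 3.07, 2.28 and 4.86 CPM in Sham rats 1, 2, 3 and 5, and at 8.95, 5.50, 10.5 and 8.99 CPM in MI rats 1, 3, 4 and 5. It was at 5.89, 4.83, 11.7 and 4.57 CPM in iCarP+/Light+ rats 1, 2, 4 and 5. The treated rats overlapped both other groups, with rat 4 above all MI rats and rats 2 and 5 within the Sham range. Il1rl1 rose 2.64-fold in MI against Sham (log2 fold change 1.40, SE 0.34, adjusted p = 0.00289), and its log2 fold change in iCarP+/Light+ against MI was -0.33 (SE 0.33, adjusted p = 0.589). The rise in iCarP+/Light+ against Sham (log2 fold change 1.07, SE 0.34, adjusted p = 0.0142) did not pass without treated rat 4 (0.67, adjusted p = 0.0620). Il33 and its receptor gene thus differed in which comparison they passed, but the difference between them was not tested.

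The agonists were then set against the antagonist and the decoy receptor within each rat, as ratios of CPM on the log2 scale with a prior count of 2. Il1b/Il1rn was 0.679 as a geometric mean in Sham (log2 -0.56 ± 0.26, SD, n = 4), 0.134 in MI (-2.91 ± 0.60) and 0.575 in iCarP+/Light+ rats (-0.80 ± 0.19). In single rats it was 0.554 to 0.856 in Sham rats, 0.0752 to 0.196 in MI rats and 0.504 to 0.656 in treated rats. MI rats were therefore below all other rats in the agonist against the antagonist, while Sham and treated rats overlapped. These ratios compare groups and are not corrected for gene length, so a ratio of 1 does not mean equal levels. Per kb of gene length, Il1rn was above Il1b in every MI and every treated rat.

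Il1b/Il1r2 was 3.04 to 13.5 in Sham rats, 0.513 to 1.14 in MI rats and 1.83 to 2.30 in treated rats, with geometric means of 5.97, 0.814 and 2.02. The 3 groups did not overlap, with the treated rats between the others. Il1r1/Il1r2, the signalling receptor against the decoy, was 83.9 to 349 in Sham rats, 1.09 to 3.92 in MI rats and 0.200 to 0.324 in treated rats, also without overlap. Per kb of gene length, the signalling receptor was above the decoy in all Sham rats and in MI rat 5 and below it in the other MI rats and in all treated rats. The Sham values rest on 1 to 8 decoy reads a rat.

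Il1a/Il1rn was 0.0665 to 0.130 and Il1a/Il1r2 was 0.242 to 0.471 in iCarP+/Light+ rats. These ratios are not given for Sham and MI rats, in which Il1a was at or near the floor. Il33/Il1rl1 was 4.15 to 11.0 in Sham rats, 1.57 to 3.83 in MI rats and 4.23 to 9.91 in treated rats, so MI rats were below all others and Sham and treated rats overlapped. No test was run on these ratios, since the genes were chosen with their levels known.

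**Figure D3:**
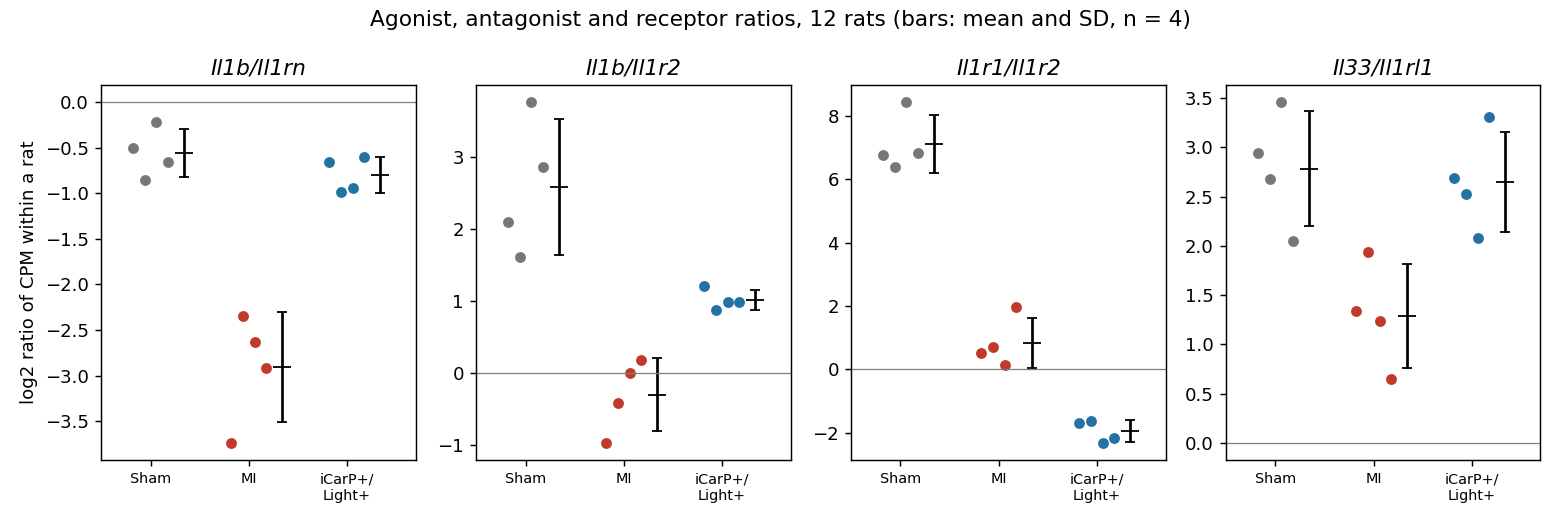
Log2 ratios of CPM within each rat (y axis) for Il1b/Il1rn, Il1b/Il1r2, Il1r1/Il1r2 and Il33/Il1rl1, with points for 4 rats per group and bars for the mean and SD, not corrected for gene length. MI rats lie below both other groups for Il1b/Il1rn, Il1b/Il1r2 and Il33/Il1rl1, and Il1r1/Il1r2 is lowest in iCarP+/Light+ rats.

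Levels of different genes were compared as CPM per kb of gene length. The 10 genes summed to 31.2 to 40.3 CPM per kb in Sham rats, 214 to 384 in MI rats and 2300.0 to 4849 in treated rats. In Sham, Il1r1 made up 43.4% ± 2.49 (SD, n = 4) of the sum and Il33 25.5% ± 3.29, so a receptor and an alarmin led. In MI, Il1rn made up 53.2% ± 6.73, Il1r2 12.6% ± 3.20 and Il1b 10.6% ± 2.90. In iCarP+/Light+ rats, Il1rn made up 40.3% ± 3.02, Il1b 33.9% ± 2.03, Il1r2 16.3% ± 1.13 and Il1a 5.96% ± 1.43. Both inhibitors and both agonists together therefore took nearly the whole sum in treated rats, where Il1r1 was at 1.56% ± 0.348 and Il18 at 0.212% ± 0.115.

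The order of levels per kb in Sham was Il1r1, Il33, Il1rap, Il18, Il1rn, Il1b, Il1rl1, Il1r2, Il18r1 and Il1a. Neighbours overlapped from Il1rap to Il1rl1 and again from Il1r2 to Il1a, so the order of adjacent genes there is not set by their ranges. Genes further apart in a run could still be separate, as were Il1rap (3.32 to 3.67 CPM per kb) and Il1rl1 (0.642 to 1.37). In MI, the order was Il1rn, Il1r2, Il1b, Il18, Il1r1, Il33, Il1rap, Il1rl1, Il18r1 and Il1a. Il1rn was above the others in MI without overlap, at 161 ± 63.8 CPM per kb (SD, n = 4), while neighbours overlapped from Il1r2 to Il1r1, from Il33 to Il1rap and from Il18r1 to Il1a. In iCarP+/Light+ rats, the order was Il1rn, Il1b, Il1r2, Il1a, Il1r1, Il1rap, Il33, Il18, Il1rl1 and Il18r1. Neighbours overlapped from Il1rn to Il1r2 and from Il1r1 to Il1rap, and Il1a was below the first 3 and above the rest at 207 ± 62.5 CPM per kb.

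**Figure D4:**
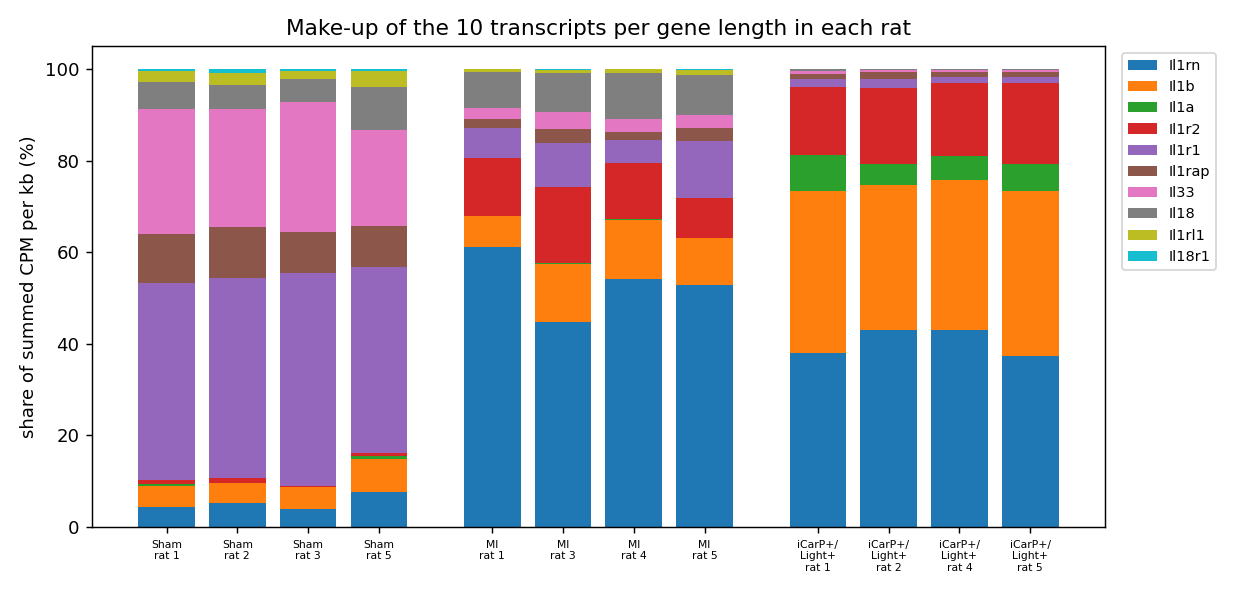
Share of the summed CPM per kb (y axis, percent) taken by each of the 10 genes in each rat, 1 stacked bar per rat. Il1r1 and Il33 lead in the Sham rats, Il1rn in the MI rats, and Il1rn with Il1b in the iCarP+/Light+ rats.

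The counts for lists of genes stand beside the shares of all genes tested, which were 30.2% higher and 33.6% lower in MI against Sham and 11.6% higher and 2.01% lower in iCarP+/Light+ against MI. Of 5 other ligands and antagonists of the family, only Il36b, an IL-36 agonist, had enough counts for a test. It rose in MI against Sham (log2 fold change 3.38) from 0 to 6 reads a rat in Sham to 22 to 35 reads in MI (4.86 without Sham rat 3), and its log2 fold change in iCarP+/Light+ against MI was 0.88, which did not pass. Among 6 other receptors and soluble binders, 4 were tested, of which 2 rose and 1 fell in MI against Sham and 2 rose in iCarP+/Light+ against MI, and with 4 genes the first of these counts is near the shares of all genes. Il18rap, the accessory receptor for IL-18, rose in both (2.56 and 2.27), and Il1rl2, the receptor for IL-36, rose by 4.41 and by 1.04 on the log2 scale. The second of these did not pass without MI rat 3 (0.93), MI rat 5 (0.88) or treated rat 2 (1.04), 4 (1.06) or 5 (0.73). Il18bp, the soluble protein that neutralises IL-18, fell in MI against Sham (log2 fold change -1.10), a call lost with total counts alone.

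Of 13 genes for processing and release of IL-1, 11 were tested, of which 7 rose in MI against Sham, beside 30.2% of all genes, and 5 in iCarP+/Light+ against MI, beside 11.6%, with none called lower. The median log2 fold changes were 0.77 and 0.25. Elane, neutrophil elastase, which can cut IL-1 family precursors, rose by 4.95 and 3.99 on the log2 scale, the first from 0 to 1 read a rat in Sham. As with Il36b and Il1rl2, no Sham rat reached the filter's minimum for Elane, so a difference between MI and Sham had to be a rise. In iCarP+/Light+ against MI, the inflammasome sensors Nlrp3 (2.51) and Nlrc4 (2.58) rose, whereas the sensors Aim2 (-0.13) and Nlrp1a (0.14) did not pass. The caspase genes Casp4 (1.13) and Casp8 (0.91) also rose in this comparison. Casp1, which cuts IL-1β and IL-18, the adaptor Pycard and the pore-forming Gsdmd did not pass. Casp4 did not pass without MI rat 1 (1.16), 3 (1.05) or 5 (1.02), or without treated rat 2 (1.12) or 5 (0.69).

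All 15 genes of proximal signalling were tested, and in each of these comparisons 6 rose and 1 fell, with median log2 fold changes of 0.26 and 0.47. The same count stands beside 30.2% of all genes called higher in MI against Sham, to which it is near, and beside 11.6% in iCarP+/Light+ against MI. Myd88, the adaptor of the receptor, had the highest rise in MI against Sham (1.64), and Irak3, a kinase-like inhibitor of the pathway, in iCarP+/Light+ against MI (2.75). Tab1, a partner of the kinase TAK1, fell in both (log2 fold change -0.40 in each). The decrease in MI turned to 0.17 with total counts alone, and the decrease in iCarP+/Light+ did not pass without MI rat 1 (-0.40) or 4 (-0.36), or treated rat 2 (-0.36) or 4 (-0.38).

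Of 18 genes that IL-1 is known to induce, 17 were matched and tested, of which 12 rose in MI against Sham and 14 in iCarP+/Light+ against MI, with none called lower, beside 30.2% and 11.6% of all genes called higher. The median log2 fold changes were 2.85 and 3.53. Csf3, Ccl20, Mmp3 and Ptges passed the filter on low counts only with the treated rats counted. For Csf3 and Mmp3, with 1 and 0 MI rats at the filter's minimum, a difference between treated and other rats had to be a rise. For Ccl20 and Ptges, 3 MI rats reached it, so the direction against MI was not fixed. No Sham rat reached the minimum for these 4 genes, Il6 and Cxcl2, so differences from Sham had to be rises. Counts and medians that include such values support nothing by themselves. Il6, an acute-phase cytokine, rose from 0 to 4 reads a rat in Sham to 22 to 163 reads in MI (log2 fold change 6.26). All Sham reads of Il6 were in Sham rat 1, and without it the fitted value of 9.64, set against 0 reads, depends on the prior count. Csf3, the growth factor of neutrophils, had 0 reads in every Sham rat, 0 to 11 reads in MI and 3022 to 3572 reads in iCarP+/Light+ rats (log2 fold change against MI 9.95, from 16 reads in the 4 MI rats, and 11.2 without MI rat 4). In iCarP+/Light+ against Sham, 16 of the 17 rose, beside 33.5% of all genes. These genes have other inducers as well, and the part of IL-1 in their levels was not tested.

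Neutrophils, monocytes and macrophages are known to make IL-1, and their markers also differed between the groups. All 7 tested of 8 neutrophil markers rose in both comparisons (median log2 fold changes 4.71 and 3.37), led by S100a8 (6.37) in MI and Camp (4.70) in iCarP+/Light+ rats, where 30.2% and 11.6% of all genes were called higher. Camp reached the minimum of the filter on low counts in 3 MI rats, 4 treated rats and 0 Sham rats. Its difference from Sham therefore had to be a rise, while its direction against MI was not fixed by the filter. The summed CPM of the neutrophil markers was 7.73 to 12.5 in Sham rats, 328 to 636 in MI rats and 2226 to 6697 in treated rats. None of the 8 was at 0 in all rats of a group. Ngp, the marker not tested, did not follow the others. It was near the floor, with means of 0.418, 0.224 and 0.291 CPM in Sham, MI and treated rats. Of 8 monocyte and macrophage markers, 7 were matched and tested, of which 6 rose in MI against Sham, led by Lyz2 (4.26), beside the same 30.2%, with summed CPM of 380 to 605, 3779 to 6605 and 2842 to 4630 in Sham, MI and iCarP+/Light+ rats. In iCarP+/Light+ against MI, where 11.6% of all genes were higher and 2.01% lower, 1 of these rose (Adgre1, 1.19) and 1 fell (Mrc1, -1.02, which did not pass without MI rat 1 (-0.65) or treated rat 2 (-1.01), 4 (-0.98) or 5 (-1.08)), and the median was -0.45. Lyz2 made up most of the monocyte and macrophage sum in MI and treated rats. The other 6 of these markers summed to 227 to 307, 731 to 1557 and 698 to 1090 CPM in Sham, MI and treated rats. The part of neutrophils, monocytes and macrophages in the levels of the 10 genes was not tested.

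In iCarP+/Light+ against MI, 11.6% of all genes were higher and 2.01% lower, and in MI against Sham 30.2% and 33.6%. Near the latter shares were the lymphocyte markers called higher (3 of 8) and mast cell markers called lower (2 of 5) in MI. The 1 lymphocyte marker called lower and the 0 mast cell markers called higher in MI were below them. Of the 8 lymphocyte markers, 3 rose, led by Cd8a (5.46), and 1 fell (Cd4, -0.71, a call lost with total counts alone), and 2 fell in iCarP+/Light+ against MI, Cd8a among them (-1.83), with summed CPM of 47.1 to 71.2, 111 to 242 and 41.4 to 82.5 in Sham, MI and iCarP+/Light+ rats. The higher sum in MI was carried by Cd8a, since the other 7 markers summed to 45.5 to 66.6, 33.2 to 46.5 and 27.4 to 32.1 CPM. Mast cell markers, of which 5 of 6 were tested, were lower for 2 in MI, led by Tpsb2 (-1.50, a call lost with total counts alone), and none passed in iCarP+/Light+ against MI, with summed CPM of 61.3 to 112, 50.6 to 84.0 and 62.4 to 88.3. Kit, which other cells express as well, made up most of this sum, and the other 5 mast cell markers summed to 12.8 to 45.9, 8.52 to 16.4 and 5.62 to 10.02 CPM. All 4 tested endothelial markers fell in MI, led by Cdh5 (-1.28), with none passing in iCarP+/Light+ against MI, and their sums were 1337 to 1499, 552 to 902 and 789 to 872 CPM. Fibroblast markers fell for 5 of 6 in MI, led by Dpt (-2.46), and only Dcn rose in iCarP+/Light+ against MI (0.73), a call kept without 4 of the 12 rats when each was left out and lost under 5 of the other settings, while the sums were 3746 to 4287, 1081 to 1363 and 777 to 1565 CPM. All 6 cardiomyocyte markers fell in MI, led by Myh6 (-4.73), and none passed in iCarP+/Light+ against MI.

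**Figure D5:**
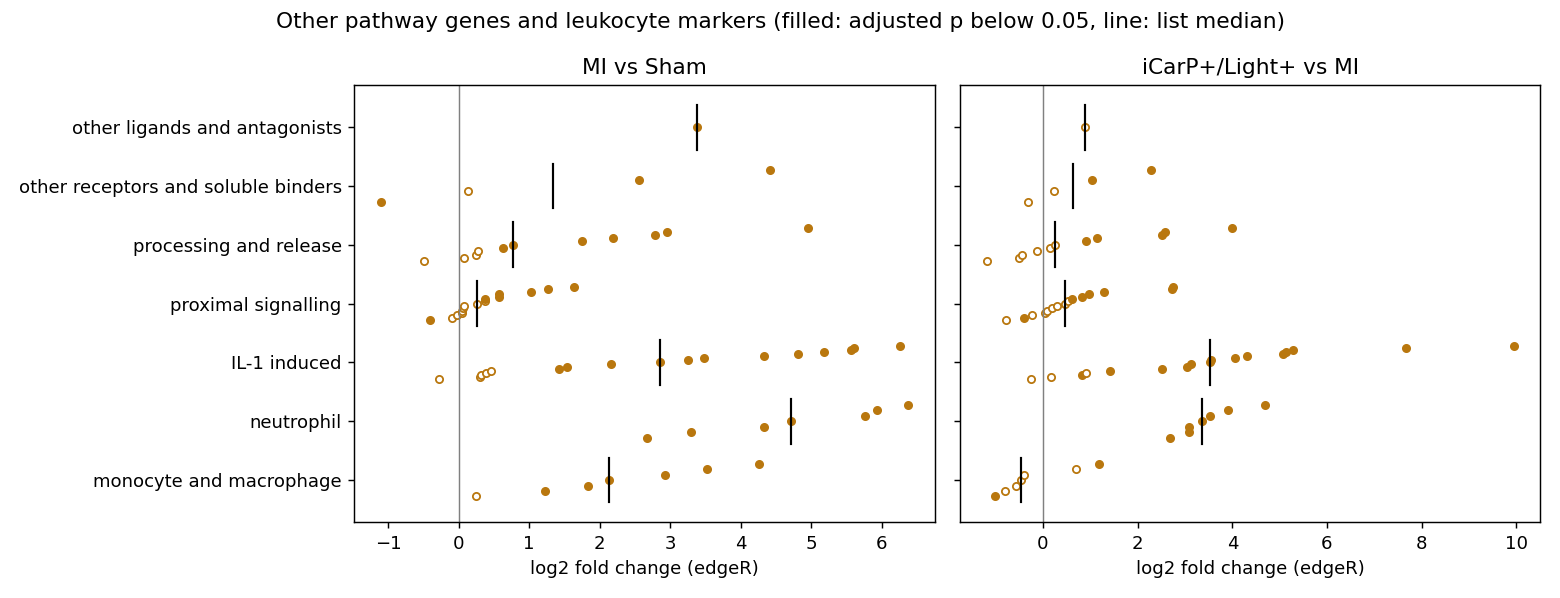
Log2 fold change by edgeR (x axis) of each tested gene of the pathway, neutrophil and monocyte and macrophage lists, 1 row per list, for MI against Sham on the left and iCarP+/Light+ against MI on the right, filled where the adjusted p was below 0.05, with a vertical line at the list's median. The medians of the neutrophil markers (4.71 and 3.37) and of the IL-1 induced genes (2.85 and 3.53) lie well above 0 on both sides, and that of the monocyte and macrophage markers lies at 2.14 on the left and -0.45 on the right.

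Genes with the pattern most like that of 3 members were ranked by Pearson's r of log2 CPM over the 12 rats, which share the same libraries and fall into 3 separate groups, so r mainly follows the differences between groups. Closest to Il1b were Cxcl2 (0.995), a chemokine for neutrophils, Acod1 (0.994), which makes itaconate, Hcar2 (0.994), Nfkbiz (0.992) and Nod2 (0.992). Closest to the decoy Il1r2 were Plaur (0.996), the urokinase receptor, Slc16a3 (0.995), a lactate transporter, the antagonist Il1rn (0.994), Fcar (0.994) and Fgd3 (0.994). Closest to Il33 were Ggnbp2 (0.945), Fbxo11 (0.935), Tax1bp1 (0.915), Ppp4r2 (0.899) and Dnajb9 (0.898), none of which is a cytokine.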

How the data were processed

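Total RNA of LV myocardium from 12 rats, 4 per group, was sequenced after Trizol extraction and NEBNext Ultra library preparation. The authors deposited raw read counts per gene, unnormalized, for 34599 loci. The submitters' processing notes name HISAT2, featureCounts and rn6, and versions, annotation release and strand setting are not given in the sources used here. Groups and replicate numbers came from the labels, which give no batch. Each sample was treated as 1 rat, which the labels do not state, so p-values measure only the spread between these samples.

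Statistics were computed on these counts in edgeR 4.0.16 (R 4.3.3). The function filterByExpr with a minimum count of 10 left 15101 genes, all 10 members among them. After TMM scaling, the 12 rats entered a single quasi-likelihood fit with a mean for each group, and p-values were adjusted by Benjamini-Hochberg over all genes tested. Log2 CPM used a prior count of 2. CPM per kb used the gene length of the deposited table. The script was tested on simulated data. No pair of rats within a group was a copy of the same library.

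The members, and the lists of pathway genes and cell markers, were chosen with earlier results of these data known. From each list, the tested genes with the highest and lowest called log2 fold change were named. Genes of direct bearing on IL-1 (Il18rap, Nlrp3, Nlrc4, Aim2, Nlrp1a, Casp4, Casp8, Casp1, Pycard and Gsdmd) were named after their values were seen. So were Bco2, for its overlap with Il18, and Ngp, the neutrophil marker not tested. Alternatives were DESeq2's size factors, total counts alone, DESeq2 1.42.0, limma-voom (limma 3.58.1), other filters, no mitochondrial genes, a replicate block, only the compared groups, a prior count of 0.5 for the ratios, and each rat left out in turn. Plots were drawn with matplotlib 3.10.9.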

Additional observations from a re-analysis of the deposited data

Results flagged for a closer look

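Sham rat 5 was far from the other Sham rats in Il18, with a log2 CPM of 1.98 against 0.87 to 1.02 in the others (Dixon ratio 0.871). Sham rat 3 was far from the other Sham rats in Il33, with a log2 CPM of 4.73 against 4.36 to 4.39 (Dixon ratio 0.923). These were 2 of 48 groups of 4 rats examined against Dixon's critical value, where chance flags about 2.4. Without Sham rat 3, the log2 fold change of Il33 in MI against Sham was 0.0169.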

How the results depend on the processing

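The calls for the 10 genes kept their direction and side of the threshold except for Il33 and Il1rl1. Il33 in MI against Sham (log2 fold change -0.083) turned to 0.49 with total counts alone (adjusted p = 0.0336 by edgeR, -0.029 after subtracting the median over all genes) and to 0.0506 with only the compared groups, and ranged from -0.17 to 0.0689 with each rat left out (0.0169 without Sham rat 3, 0.0689 without MI rat 5, 0.0226 without iCarP+/Light+ rat 5). Total counts alone moved the median of all genes by 0.58, -0.27 and 0.31 (log2) for MI against Sham, iCarP+/Light+ against MI and iCarP+/Light+ against Sham, and the share of calls that were higher from 47.3% to 73.5%, 85.2% to 30.7% and 50.3% to 64.7%. For iCarP+/Light+ against MI, that share was 77.4% with DESeq2's size factors, 70.8% with DESeq2 and 72.4% with a minimum of 10 counts in each sample. Calls over all genes in that comparison were 2051, against 3926 with total counts alone and 1551 with only the compared groups. With total counts alone, 12 rather than 7 of the 15 genes of proximal signalling were called in MI against Sham, and Tab1 turned to 0.17. Under that scaling, 51.0% of all genes were called higher and 18.4% lower in this comparison. At least 10 counts in every sample removed Il1a, Il1r2 and Il18r1 from the test, left 0 other ligands in MI and in iCarP+/Light+ against Sham, 1 other receptor in iCarP+/Light+ against MI, and 5, 8 and 9 IL-1 induced genes in the 3 comparisons, since fewer genes were tested. Calls among other receptors in iCarP+/Light+ against MI were 1 rather than 2 with only the compared groups, and 1 to 2 with each rat left out. A prior count of 0.5 moved the log2 difference of Il1a/Il1rn in treated rats from 6.37 to 7.13 against MI and from 0.62 to 1.78 against Sham. That of Il1a/Il1r2 moved from 5.57 to 6.34 against MI and from -0.70 to 0.0706 against Sham, a change of sign. Il1a was near 0 reads in MI and Sham, so the size of these differences depends on the prior count. The cause of the other changes was not tested.

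Rats with the same number are different animals, and none of 9 same-number pairs correlated over 0.1 (r -0.150 to 0.065). Under a replicate block, 8702 of 15101 genes were called in MI against Sham, 1298 in iCarP+/Light+ against MI and 9155 in iCarP+/Light+ against Sham. Calls among the 10 genes were 8, 8 and 9 in the same order, and 1 other receptor was called in iCarP+/Light+ against MI. Il1rl1 in iCarP+/Light+ against Sham was then 0.70 (adjusted p = 0.0605 by edgeR). Among the genes named from the lists, Il1rl2, Casp4, Tab1, Adgre1 and Dcn did not pass under the block in iCarP+/Light+ against MI. With only the compared groups, Il1rl2, Casp4, Tab1, Mrc1 and Dcn did not pass in that comparison. Dcn also did not pass with DESeq2's size factors (adjusted p = 0.0536 by edgeR), total counts alone (0.46, adjusted p = 0.115) or at least 10 counts in every sample (adjusted p = 0.0526), nor Il1rl2 with total counts alone (0.76, adjusted p = 0.0569). Depth limits Il1a in Sham and MI rats and Il1r2 in Sham rats.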

Other observations

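Among the treated rats, rat 1 had the lowest and rat 5 the highest CPM of Il1b (1132 and 2430.1), Il1rn (1785 and 3704), Il1r2 (492 and 1222), Il1rap (84.5 and 192) and Il1r1 (152 and 272). The other genes did not follow this order. Il18 was highest in rat 1 (8.64 CPM), Il1a and Il33 were lowest in rat 2 (181 and 28.5 CPM), and Il33, Il18r1 and Il1rl1 were highest in rat 4. Mitochondrial genes took 14.2% of the counts in treated rat 1 and 7.14% in treated rat 5. Among the Sham rats, rat 5 had the highest CPM of Il1b (3.98), Il1rn (6.34), Il18 (3.83), Il1rap (12.5) and Il1rl1 (4.86).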
